A study of Mus musculus with 12 samples.

Results

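The 4 libraries numbered replicate 2 were set against the 8 libraries numbered replicate 1 or 3, across 4 mouse melanoma cell lines. They were chosen by the replicate number in their titles, so they are 4 of 12 libraries, 1 from each line. The contrast itself was picked because these values had shown replicate 2 to stand apart. For that reason its fold changes and counts are given as a description of these libraries. The p-values of this contrast serve only as a cut-off for sorting and counting genes, not as evidence. No single gene's p-value is printed for it.

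The study measured RNA in 4 untreated lines, 3 libraries each: MeVa2.1 with its namesake MeVa2.1.dOVA, then MeVa2.2 with its namesake MeVa2.2.dOVA. All 4 are labelled as murine melanoma lines of WT genotype whose tissue is given as skin and s.c. tumor. What dOVA stands for is not said in the labels, and its carriers are taken from their names as derivatives of the other lines. Strand-specific mRNA libraries were made from column-purified RNA. The labels give no culture density, passage, medium, day of harvest or animal, and do not say whether replicates were separate cultures. Test results for other contrasts therefore measure only the spread between these libraries, which may be technical. The deposited files carry a number that is shared by the 4 libraries of each replicate number and that the labels do not explain. If each replicate number was handled on 1 occasion, the 4 replicate 2 libraries are 1 instance of it, and the replicate number and that occasion cannot be told apart.

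Cells of a growing line pass through DNA replication and mitosis, and each stage has its own set of transcripts: E2F factors drive the genes of the G1/S step, and a later wave carried by the DREAM and MuvB complexes with B-MYB and FOXM1 drives those of G2 and mitosis. Cultures that run short of space, serum or nutrients, or that take damage, leave the cycle. The p53 target Cdkn1a then blocks the cyclin-dependent kinases, while the actin and serum-responsive genes of SRF, the sterol genes of SREBP2 and the lysosomal genes of TFEB respond to shape, lipid and nutrient supply. These sets are common markers of culture state in any adherent line.

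Gene counts per library ran from 16181816 to 35627069, and the replicate 3 library was the deepest in each line. After the mean of each line was subtracted from log2 CPM (read counts scaled to library size), the first component held 48.0% of the variance. On it the replicate 2 libraries lay at 26.2, 60.01, 70.3 and 42.6, in the order of lines just given, and the other 8 lay between -55.8 and 13.2. The second component, with 17.0%, separated replicate 1 from replicate 3. The library at 13.2 was MeVa2.2.dOVA replicate 1, the nearest of the 8 to the replicate 2 libraries. MeVa2.2 replicate 2 correlated at 0.970 and 0.966 with MeVa2.2.dOVA replicates 1 and 2, more than with the other libraries of MeVa2.2 (0.958 and 0.935). Reads outside genes made up 6.83% of the replicate 2 libraries on average and 5.92% of the others, and were above the mean of the line's other libraries in 4 of 4 lines (exact permutation test within lines, two-sided, p = 0.0247, adjusted over 4 measures 0.0741, where 0.0123 is the smallest p possible). Their part in the results below was not tested.

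**Figure D1:**
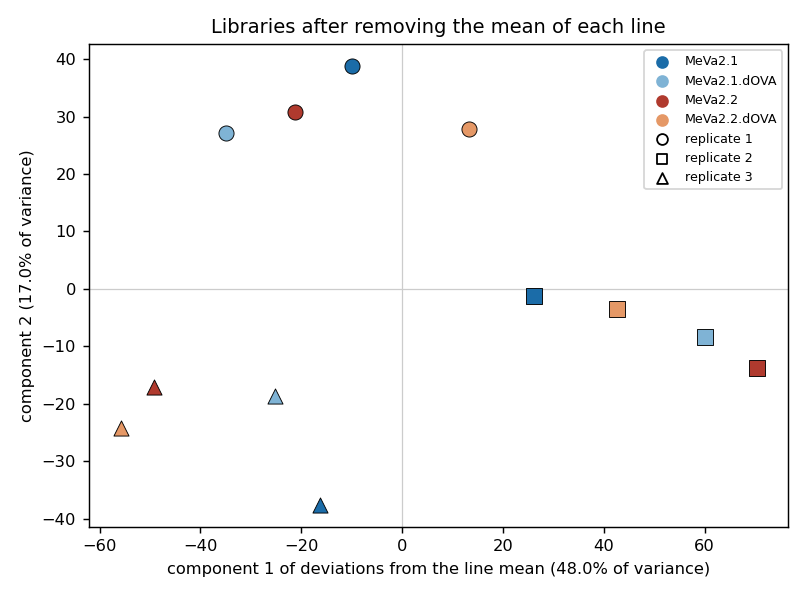
First and second principal components of log2 CPM after the mean of each line was removed (axes in component units, share of variance in brackets); each point is a library, with colour for the line and shape for the replicate number. The 4 replicate 2 libraries lie between 26.2 and 70.3 on component 1, to the right of the other 8, which reach 13.2.

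In an edgeR quasi-likelihood fit with the line as a block, 14407 genes were tested. A gene is named called here when its Benjamini-Hochberg adjusted p was at most 0.05, and "rose" or "fell" is used of such genes alone. Of these genes 1959 (13.6%) were called, 772 (5.36%) higher and 1187 (8.24%) lower in replicate 2, and 881 (6.12%) were called with at least a 2-fold difference. The median log2 fold change over all genes was -0.05, with 6609 genes positive and 7798 negative. The 13.6% is the share to set beside the shares called in the lists below. Replicate 2 was the lowest library of its line in all 4 lines for 1639 genes (11.4%), of which 978 were called lower (6.79% of all tested), and the highest for 1391 (9.66%), of which 664 were called higher (4.61%). Replicate 3 was lowest in all 4 lines for 852 genes (5.91%) and highest for 1188 (8.25%), and replicate 1 for 333 (2.31%) and 575 (3.99%). As the contrast was chosen on these values, nothing is read from the counts.

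These calls rest on particular libraries. Without MeVa2.1.dOVA replicate 2, or without MeVa2.2 replicate 2, edgeR called 0 genes, while 3537 and 3174 had an unadjusted p under 0.05 and DESeq2 called 1531 and 1270. Without MeVa2.2.dOVA replicate 2 the count was 431, and without MeVa2.1.dOVA replicate 1 it was 358. It was 937 without MeVa2.1.dOVA replicate 3 and 1131 without MeVa2.2 replicate 3, and it rose to 3137 without MeVa2.2.dOVA replicate 1. Directions moved less: of the 38 genes in the G2/M and mitosis list described next, all 38 were lower in replicate 2 with all libraries, without MeVa2.1.dOVA replicate 2 (median log2 fold change -1.55), without MeVa2.2 replicate 2 (-1.32) and without both (-1.21), though 0 were called in the last 3 of these fits.

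**Figure D2:**
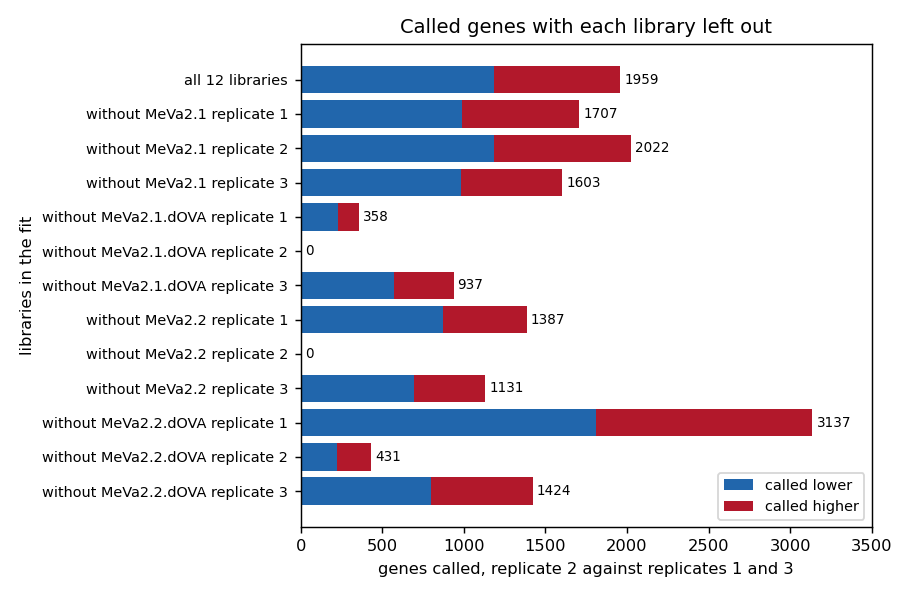
Number of genes called lower (blue) and higher (red) in replicate 2 against replicates 1 and 3 (horizontal axis) with all 12 libraries and with each library left out (vertical axis). The count is 1959 with all libraries, 0 without the replicate 2 library of MeVa2.1.dOVA or of MeVa2.2, and 3137 without MeVa2.2.dOVA replicate 1.

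The genes of G2 and mitosis were lower nearly without exception. All 38 genes of the G2/M and mitosis list passed the filter on low counts. Of these 37 fell and 0 rose (97.4% called, beside 13.6% of all genes tested). The median log2 fold change was -1.59, a 3.01-fold lower level, beside -0.05 over all genes. Replicate 2 was the lowest library in all 4 lines for 30 of them. The median difference within lines was -1.14, -1.68, -2.34 and -1.04, again for MeVa2.1, its dOVA derivative, MeVa2.2 and its dOVA derivative. Levels in the replicate 2 libraries are given throughout in that order, followed by the lowest, median and highest of the other 8 libraries.

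Plk1 (chr7:122159439-122169873, plus strand, GRCm38), the kinase that drives mitotic entry and spindle assembly, was measured at 27.6, 15.1, 13.2 and 21.7 CPM in replicate 2 and at 25.9, 93.9 and 133 CPM in the others. The groups overlapped only through MeVa2.2.dOVA replicate 1, the 25.9, which lay under the 27.6 of MeVa2.1 replicate 2. The fitted log2 fold change was -2.18, and the difference within lines ran from -2.83 to -1.19. Ccnb1, cyclin B1 and partner of the mitotic kinase, stood at 38.1, 27.8, 21.7 and 21.6 CPM against 20.3, 80.8 and 95.1 CPM, and again MeVa2.2.dOVA replicate 1 was the low value. Its log2 fold change was -1.37. The kinase Cdk1 itself fell by 1.14 on the log2 scale, from a median of 137 CPM to between 44.9 and 80.7 CPM. That range lay wholly below the 81.8 CPM that was the lowest of the other libraries.

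Mki67, the proliferation antigen that coats mitotic chromosomes, stood at 133, 124, 45.8 and 58.3 CPM in replicate 2 and at 101.2, 378 and 536 CPM in the others, a log2 fold change of -2.06. The replicate 2 libraries of the MeVa2.1 lines lay above the 101.2 of MeVa2.2.dOVA replicate 1 and below all the rest. Kif20a, a kinesin of the central spindle, stood at 51.8, 26.2, 22.2 and 28.2 CPM against 57.9, 151 and 227 CPM, so that the groups did not overlap. Aurka, the Aurora A kinase of the centrosome, was lower by less, with 34.1, 36.2, 34.4 and 46.9 CPM against 63.0, 84.2 and 100.7 CPM and no overlap. The gene of the list that was not called was Pttg1, which encodes securin: its log2 fold change was -0.43, and its levels of 9.30, 5.53, 4.07 and 5.41 CPM overlapped the 6.13 to 9.54 CPM of the others. Kif2c, a microtubule-depolymerizing kinesin of the centromere, Ccnb2, cyclin B2, and Cenpf, a kinetochore protein, had log2 fold changes of -2.36, -2.34 and -2.31.

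The promoters of Ccnb2, Cenpf and Plk1 are shown because they are the called genes of the list with the largest fall whose RefSeq start lies within 500 bases of the annotated 5′ end of the gene (GENCODE M21) and whose promoter holds the CHR (cell cycle genes homology region) letters TTTGAA, through which the MuvB complexes bind. RefSeq promoters of 300 bases, 250 before and 50 after the start, were available for 31 of the 38 genes, and 22 of the 31 (71%) held TTTGAA on either strand, beside 18.1% of all 27025 promoters of that length and 11.7% of those of the genes tested. With starts farther than 500 bases from the annotated 5′ end left out, as an alternative chosen after seeing the data, the count was 21 of 30 (70%), beside 15.5% of all such promoters. Kif2c is the gene so left out, since its listed RefSeq start lies inside the annotated gene. The limit of 500 bases holds for all promoters printed here and below, and genes on a chromosome set aside from printing were not considered. CCAAT, the letters bound by NF-Y, was found in 22 of the 31 (71%) and in 37.9% of all promoters. Both motifs were in 17 promoters, with matches that shared letters in 0 of 31, TTTGAA without CCAAT was in 5 and neither was in 4. Among promoters of genes called lower the share with TTTGAA was 19.3%. A match is a description of letters, not a bound site. A list built around a factor can be rich in its motif whatever replicate 2 does. The list shares here and below thus describe the lists, not the replicate 2 difference. The sequences run 5′ to 3′ on the strand of the gene, from RefSeq on GRCm38.p6, and capitals mark TTTGAA or its reverse complement TTCAAA. The Ccnb2 window is chr9:70421505-70421804 and the Cenpf window chr1:189688037-189688336, both on the minus strand, and the Plk1 window is chr7:122159185-122159484 on the plus strand.

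Ccnb2: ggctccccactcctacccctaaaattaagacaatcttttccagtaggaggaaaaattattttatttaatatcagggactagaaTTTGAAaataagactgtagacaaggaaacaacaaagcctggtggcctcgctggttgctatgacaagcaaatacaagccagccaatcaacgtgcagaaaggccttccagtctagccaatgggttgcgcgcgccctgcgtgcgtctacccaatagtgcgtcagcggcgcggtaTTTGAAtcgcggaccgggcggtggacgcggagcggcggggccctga
Cenpf: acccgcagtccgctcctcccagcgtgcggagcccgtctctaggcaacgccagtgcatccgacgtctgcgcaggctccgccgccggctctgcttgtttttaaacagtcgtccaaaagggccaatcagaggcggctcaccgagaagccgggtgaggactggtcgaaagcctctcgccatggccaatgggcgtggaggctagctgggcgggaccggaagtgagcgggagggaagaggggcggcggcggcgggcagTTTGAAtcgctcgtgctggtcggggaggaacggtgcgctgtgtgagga
Plk1: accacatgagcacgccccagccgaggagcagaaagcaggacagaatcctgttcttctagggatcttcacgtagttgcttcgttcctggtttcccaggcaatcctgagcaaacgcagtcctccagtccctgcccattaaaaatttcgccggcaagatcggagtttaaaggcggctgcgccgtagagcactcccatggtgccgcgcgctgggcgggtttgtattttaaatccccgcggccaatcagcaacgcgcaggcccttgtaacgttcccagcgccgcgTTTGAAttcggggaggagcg

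In Cenpf the match starts 3 bases into the transcript, counting the start as base 1, and in Plk1, whose levels are given above, it starts at base 31. Ccnb2 has 2 matches. Kif2c stood at 29.7, 8.47, 7.77 and 10.2 CPM in replicate 2 and at 15.6, 66.7 and 96.7 CPM in the others. Cenpf stood at 56.0, 20.9, 12.01 and 17.5 CPM against 32.2, 121 and 189 CPM. In both, MeVa2.1 replicate 2 was the highest of the replicate 2 libraries and MeVa2.2.dOVA replicate 1 was the lowest of the others, and those libraries made the overlap.

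**Figure D3:**
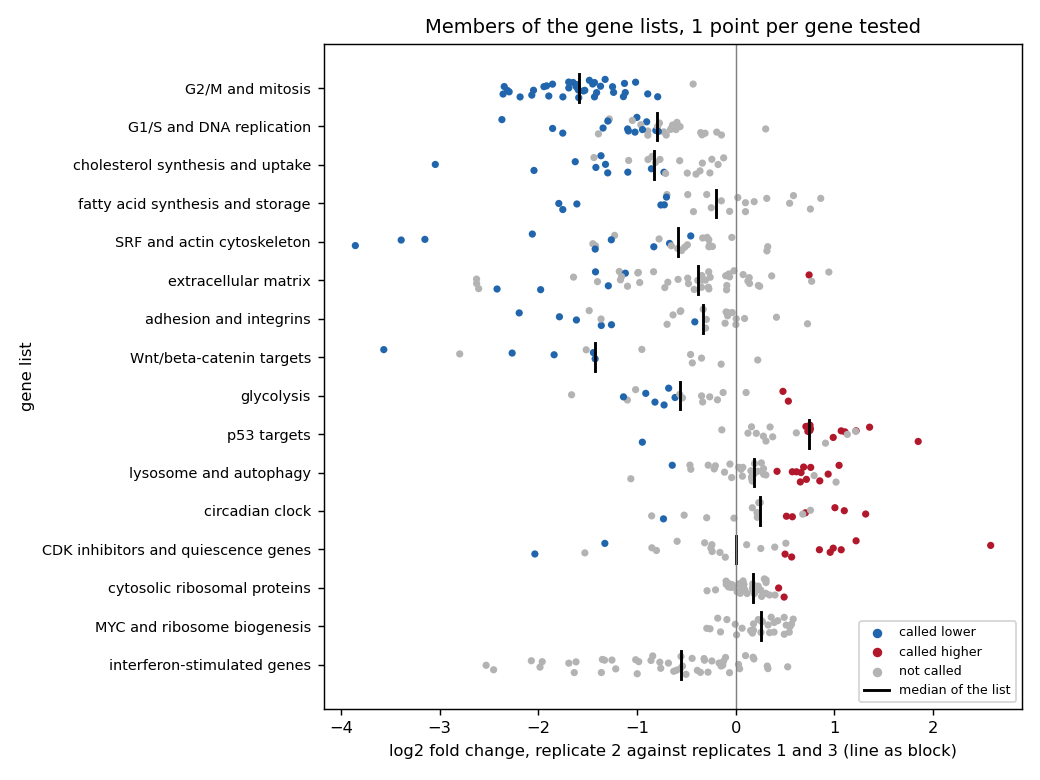
Log2 fold change of replicate 2 against replicates 1 and 3 with the line as a block (horizontal axis), 1 point for each gene tested in 16 gene lists (vertical axis), with black bars for list medians; blue points were called lower, red points higher and grey points were not called. The G2/M and mitosis list lies wholly to the left of 0, with a median of -1.59, and the p53 targets lie mostly to the right, with a median of 0.74.

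Genes of the G1/S step and of DNA replication were lower by less. All 38 genes of the G1/S and DNA replication list were tested, 14 fell and 0 rose (36.8% called). The median log2 fold change was -0.80. In a fit with 3 replicate levels it was -0.42 against replicate 1 and -1.11 against replicate 3. Replicate 3 lay above replicate 1 by a median of 0.69. Replicate 2 was the lowest library in all 4 lines for 7 of the 38 genes. In MeVa2.2.dOVA the list mean lay lower in replicate 1 (-0.50 from the line mean) than in replicate 2 (-0.34). The median difference ran from -0.34 in MeVa2.2.dOVA and -0.67 in MeVa2.1.dOVA to -0.69 in MeVa2.1 and -1.35 in MeVa2.2. Tk1 (chr11), thymidine kinase of the nucleotide salvage pathway, stood at 11.8, 7.35, 6.11 and 8.03 CPM in replicate 2 and at 4.99, 36.5 and 87.0 CPM in the others. The 4.99 was MeVa2.2.dOVA replicate 1, the lowest of all 12 libraries, and without it the groups would not overlap. The log2 fold change of Tk1 was -2.37. E2f2, an activating E2F factor, stood at 5.57, 4.65, 1.18 and 1.64 CPM against 2.76, 10.7 and 19.6 CPM. Lig1, the ligase that joins Okazaki fragments, fell by 1.75 on the log2 scale, and Mcm7, a subunit of the replicative helicase, by 0.78. Mcm6, another helicase subunit, had a log2 fold change of -1.05 without being called, and its levels of 139, 133, 88.4 and 87.7 CPM overlapped the 72.9 to 323 CPM of the others. Of 9 replication-dependent histone genes tested of 15 in the list, 2 fell, Hist1h4i and H2afx, chosen for mention after their values were seen.

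The E2F letters GCGGGAA were searched in the same way, since this motif is common in G1/S genes. In the G1/S and DNA replication list 13 of 32 promoters (40.6%) held them on either strand. The share was 4.66% of all promoters, 8.75% of those of the genes tested and 10.6% of those of genes called lower. In the mitotic list it was 0 of 31. Uhrf1, which couples DNA methylation to replication, and Chaf1a, a subunit of the histone chaperone CAF-1, are shown. Within the limits for printing they are the called genes with the largest fall that hold a match. Uhrf1 (chr17:56303087-56303386) and Chaf1a (chr17:56040166-56040465) are on the plus strand, and capitals mark TTCCCGC, the reverse complement of GCGGGAA, which starts at -48 in Uhrf1 and at -47 in Chaf1a.

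Uhrf1: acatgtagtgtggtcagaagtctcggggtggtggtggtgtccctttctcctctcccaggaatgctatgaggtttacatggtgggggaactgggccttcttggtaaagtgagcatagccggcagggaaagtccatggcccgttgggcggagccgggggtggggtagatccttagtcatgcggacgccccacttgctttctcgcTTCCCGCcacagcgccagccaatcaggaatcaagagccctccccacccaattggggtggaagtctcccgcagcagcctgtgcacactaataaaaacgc
Chaf1a: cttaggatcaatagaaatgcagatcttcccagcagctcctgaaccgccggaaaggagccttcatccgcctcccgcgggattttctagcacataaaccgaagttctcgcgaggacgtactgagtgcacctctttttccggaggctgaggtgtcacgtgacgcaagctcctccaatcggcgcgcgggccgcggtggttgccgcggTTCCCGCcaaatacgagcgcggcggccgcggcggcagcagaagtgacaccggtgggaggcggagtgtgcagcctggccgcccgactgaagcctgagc

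Uhrf1 had a log2 fold change of -1.34. Chaf1a stood at 38.6, 43.8, 30.9 and 35.0 CPM in replicate 2 and at 32.0, 81.4 and 107 CPM in the others, a log2 fold change of -1.09. As in the mitotic genes, the low value among the others was MeVa2.2.dOVA replicate 1, and without it the replicate 2 libraries of Chaf1a lay below the rest.

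Genes that hold cells out of the cycle went both ways. Of the 26 genes of the CDK inhibitors and quiescence genes list, 24 were tested, 8 rose and 2 fell (41.7% called). The median log2 fold change was 0.00. Txnip (chr3:96557957-96561883, plus strand), which encodes a thioredoxin-binding protein that limits glucose uptake and follows glucose metabolites, stood at 416, 228, 225 and 414 CPM in replicate 2 and at 6.93, 40.2 and 329 CPM in the others. The 329 was MeVa2.2.dOVA replicate 1, and the next highest was 61.3 CPM. Its log2 fold change of 2.59 was the largest among the higher genes that the naming rule selects. Cdkn1a, the p21 inhibitor, stood at 596, 1282, 408 and 950.3 CPM against 175, 311 and 622 CPM, a log2 fold change of 1.22. Foxo3, a factor of quiescence and stress resistance, Btg1, an antiproliferative gene, and Rb1, the retinoblastoma gene, rose by 0.85, 0.96 and 0.57 on the log2 scale. Cdkn2c, the p18 inhibitor and itself an E2F-driven gene, fell by 1.32 and Gas1, named for growth arrest, fell by 2.03, against the name of the list.

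Most p53 targets were higher. Of 25 genes in the p53 targets list 24 were tested, 22 had a positive log2 fold change, 11 rose and 1 fell (50% called). The median log2 fold change was 0.74, with medians of 0.36, 1.05, 0.70 and 0.75 in the 4 lines. Cdkn1a, Btg2 and Ccng1 stand in this list and in the one before. Mdm2 (chr10), the ubiquitin ligase that degrades p53, stood at 459.6, 1610.3, 475 and 1589.5 CPM in replicate 2 and at 181, 274 and 1170.5 CPM in the others. The dOVA lines had the highest values, and the 1170.5 was MeVa2.2.dOVA replicate 1. The log2 fold change was 1.36. Trp53inp1, a p53-induced nuclear protein, stood at 148, 415, 156 and 458 CPM against 27.9, 57.9 and 350 CPM, a log2 fold change of 1.85. Zmat3, an RNA-binding p53 target, and Ccng1, cyclin G1, rose by 0.71 and 0.99. Sesn1, a stress-induced regulator of mTORC1, was the gene that fell, by 0.94. Plk2 had a log2 fold change of 1.22 without being called, and its replicate 2 levels ran from 70.8 CPM in MeVa2.1 to 755 CPM in MeVa2.2.dOVA. The mRNA of Trp53 itself had a log2 fold change of 0.31 and was not called.

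**Figure D4:**
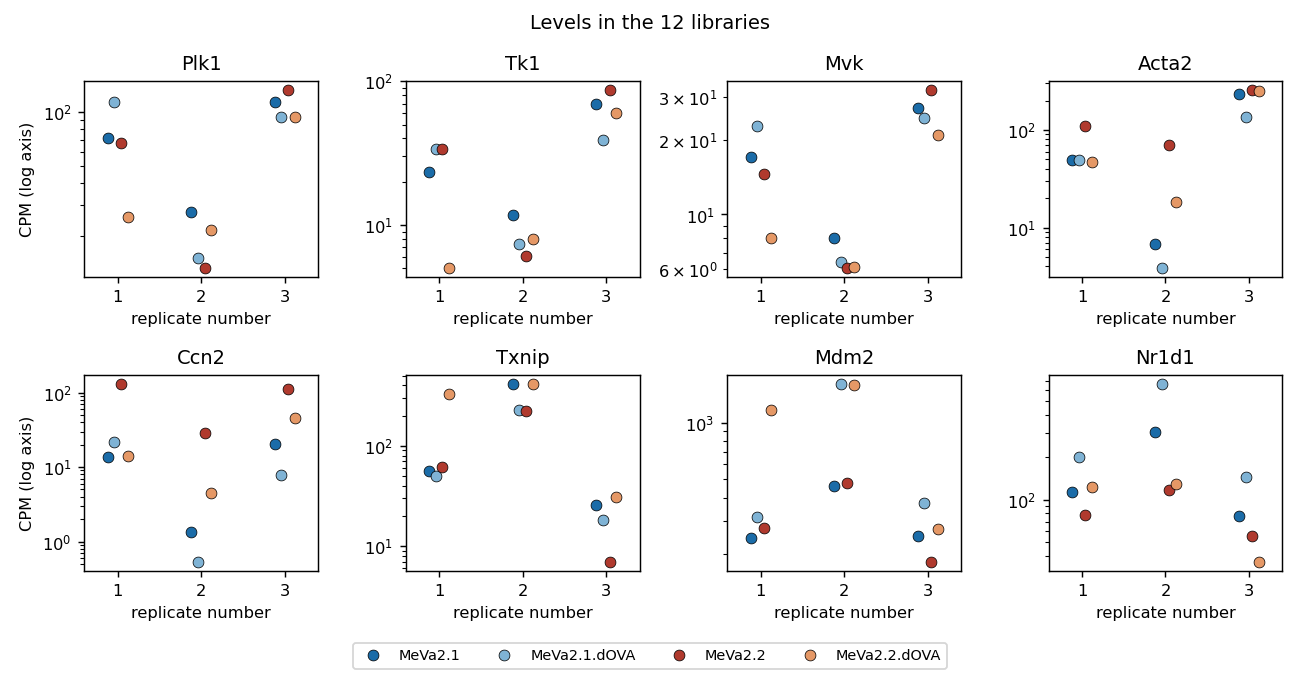
CPM on log axes of 8 genes (Plk1, Tk1, Mvk, Acta2, Ccn2, Txnip, Mdm2 and Nr1d1) in the 12 libraries by replicate number, with a colour for each line. In MeVa2.2.dOVA the replicate 1 level of Txnip, 329 CPM, lies near its replicate 2 level of 414 CPM, while in the other lines replicate 1 lies between 49.7 and 61.3 CPM.

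Sterol genes were lower together. Each of the 26 genes of the cholesterol synthesis and uptake list was tested. All 26 had a negative log2 fold change, 10 fell and 0 rose (38.5% called), with a median of -0.83. The medians in the 4 lines were -0.37, -0.79, -1.41 and -0.77. Mvk, the mevalonate kinase, stood at 8.06, 6.41, 6.06 and 6.12 CPM in replicate 2 and at 8.02, 21.9 and 31.9 CPM in the others, a log2 fold change of -1.62. The groups met only where MeVa2.1 replicate 2, at 8.06 CPM, lay just above MeVa2.2.dOVA replicate 1, at 8.02 CPM. Pmvk, the kinase of the next step, stood at 15.0, 11.5, 7.08 and 6.28 CPM against 11.95, 27.9 and 39.3 CPM, a log2 fold change of -1.36. Replicate 2 was the lowest library of each line in both genes. Hmgcs1, the synthase at the head of the mevalonate pathway, and the regulator Srebf2 were not called, with log2 fold changes of -0.40 and -0.34. The Hmgcs1 levels of 81.0, 81.1, 66.4 and 64.7 CPM lay within the 48.1 to 218 CPM of the others.

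In the fatty acid synthesis and storage list 22 of 23 genes were tested, 6 fell and 0 rose (27.3% called), with a median of -0.20. Scd2, a fatty acid desaturase, stood at 529, 232, 218 and 151 CPM against 376, 869 and 1644 CPM, a log2 fold change of -1.75. The 529 of MeVa2.1 lay above the 376 of MeVa2.2.dOVA replicate 1 and the 430 of MeVa2.2 replicate 1. Acss2, which makes acetyl-CoA from acetate, and Fads2, another desaturase, fell by 1.79 and 1.61. Fasn, the fatty acid synthase, had a log2 fold change of -0.25 and was not called.

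The cholesterol efflux and LXR targets list was mostly lower as well. All 9 genes were tested, 7 had a negative log2 fold change, 3 fell and 1 rose (44.4% called). The median was -0.88. Among those that fell were Lpcat3, a phospholipid acyltransferase, with -0.95, and Srebf1, the regulator of fatty acid synthesis, with -0.88. The gene that rose was Apoe, the apolipoprotein of cholesterol export, with 1.84, 11.4, 5.90 and 9.83 CPM against 1.16, 1.82 and 5.36 CPM and a log2 fold change of 1.495.

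Contractile and actin genes formed a further lower set. Of the 29 genes of the SRF and actin cytoskeleton list 27 were tested, 9 fell and 0 rose (33.3% called). The median log2 fold change was -0.59. Acta2 (chr19:34241090-34255590, minus strand), smooth muscle alpha-actin, stood at 6.71, 3.82, 69.5 and 18.2 CPM in replicate 2 and at 47.2, 123 and 257 CPM in the others. Within each line replicate 2 was the lowest, by 1.27 to 4.39 on the log2 scale, and the groups overlapped through the 69.5 of MeVa2.2. Tpm1, a tropomyosin, stood at 656, 573, 442 and 422 CPM against 478.5, 951 and 1199.6 CPM, a log2 fold change of -0.83. Tpm2 fell by 1.26 and Actb, cytoplasmic beta-actin, by 0.45. The immediate-early and serum response list went mostly the other way. All 29 of its genes were tested, 20 had a positive log2 fold change, 4 rose and 2 fell (20.7% called). Its median was 0.18. Acta2 is also a marker of smooth muscle and pericytes. The summed level of the 6 markers of those cells ran from 5.82 to 71.3 CPM in replicate 2 and from 48.1 to 268 CPM in the others. Replicate 2 was lowest in 4 of 4 lines, and 3 of the 6 markers were under 1 CPM in every library. Acta2 alone ran from 3.82 to 257 CPM, and the next highest marker, Tagln, reached 9.55 CPM. The sum thus mostly repeats Acta2, which was named for being lowest in all 4 lines, and is no separate result. In bulk RNA, fewer cells of a type and less RNA per cell cannot be told apart.

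Myl9, the regulatory myosin light chain, is shown from the SRF and actin cytoskeleton list. It is the called gene within the limits for printing whose RefSeq promoter held a CArG box, the SRF motif. CArG boxes on either strand were found in 8 of 23 promoters (34.8%) of that list and in 1.57% of all promoters. They were in 1.33% of the promoters of the genes tested and in 1.26% of those of genes called lower. The Myl9 promoter is at chr2:156775214-156775513 on the plus strand, and capitals mark the CArG box, which starts at -161.

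Myl9: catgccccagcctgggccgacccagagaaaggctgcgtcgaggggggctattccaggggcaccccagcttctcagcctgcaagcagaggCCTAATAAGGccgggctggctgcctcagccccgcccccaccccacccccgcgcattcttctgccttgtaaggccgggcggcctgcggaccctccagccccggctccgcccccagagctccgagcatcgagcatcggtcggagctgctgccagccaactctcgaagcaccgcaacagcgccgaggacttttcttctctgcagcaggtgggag

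Myl9 was scarce, at 0.108, 0.0588, 0.751 and 0.164 CPM in replicate 2 against 0.431, 1.86 and 5.82 CPM, and its log2 fold change was -3.39. Replicate 2 lay lowest in each line.

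Genes of the matrix and of adhesion were called in unequal shares. In the extracellular matrix list all 49 genes were tested, 5 fell and 1 rose (12.2% called, beside 13.6% over all genes tested), and the median was -0.38, positive in MeVa2.1 (0.23) and negative in the other lines (-0.84, -0.70 and -0.51). Thbs1, thrombospondin 1, stood at 270, 41.7, 41.3 and 44.5 CPM against 71.4, 363 and 650 CPM, and Ccn2, the connective tissue growth factor induced by YAP and TGF-beta, at 1.35, 0.530, 28.8 and 4.53 CPM against 7.93, 20.96 and 131 CPM. Each was lowest in replicate 2 in all 4 lines, with log2 fold changes of -2.42 and -3.02. Ccn1, a close relative of Ccn2 and also a YAP target, had -0.58 and was not called. Ccn2 is not in the matrix list but in those of YAP/TAZ targets and of TGF-beta and SMAD targets. Of 28 YAP/TAZ targets tested 3 rose and 1 fell (14.3% called), with a median of -0.07. Of 26 TGF-beta and SMAD targets tested 1 rose and 2 fell (11.5% called), with a median of -0.0007. In the matrix list the rise was that of Fn1, fibronectin, at 16884, 7847, 4343.5 and 3172 CPM against 1849, 4250.1 and 8106 CPM. Its log2 fold change was 0.74. In the adhesion and integrins list 25 of 28 genes were tested, 6 fell, 0 rose (24% called) and the median was -0.33. Itga3, the alpha chain of a laminin receptor, fell by 1.26, within a narrow range of 1.02 to 1.45 over the lines. Mcam, the melanoma cell adhesion molecule, stood at 2.87, 0.353, 0.804 and 0.218 CPM against 0.425, 2.61 and 13.2 CPM, and Itgb1, the common integrin beta chain, was not called at 0.00. In the Wnt/beta-catenin targets list 13 of 21 genes were tested and 5 fell (38.5% called), with a median of -1.42. Among those that fell was Notum, a secreted enzyme that inactivates Wnt, with -2.26. The median differences of this list within lines, taken with a prior count, were smaller, at -0.39, -0.98, -1.19 and -0.43. Replicate 2 was the lowest library in all 4 lines for 2 of the 13 genes.

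Of the lysosomal and autophagy genes that were called, most rose. All 38 genes of the lysosome and autophagy list were tested, 11 rose and 1 fell (31.6% called). The median log2 fold change was 0.19. Lamp2, a protein of the lysosomal membrane, stood at 645, 613, 675 and 720 CPM in replicate 2 and at 298, 380 and 552 CPM in the others, so the groups did not overlap. Its log2 fold change was 0.76. Npc1, which carries cholesterol out of lysosomes, stood at 322, 260, 318 and 204 CPM against 81.6, 125 and 214 CPM, where the 214 was MeVa2.1 replicate 1. Gabarapl1 and Map1lc3b, ATG8 proteins of the autophagosome, rose by 0.94 and 0.69. Fnip2 and Fnip1, folliculin partners in nutrient sensing, rose by 0.85 and 0.66, and Wipi1, which binds phosphoinositides on forming autophagosomes, fell by 0.64.

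The promoters of Atp6v0d1, a subunit of the proton pump, and of Fnip1 are shown. Within the limits for printing they are the called genes with the largest rise that hold the palindromic E-box CACGTG. This is the core of the letters bound by TFEB and also by MYC and the clock factors. CACGTG was found in 8 of 29 promoters (27.6%) of the lysosome and autophagy list, in 7.24% of all promoters and in 10.2% of those of the genes tested. Among promoters of genes called higher the share was 15.2%. Atp6v0d1 is at chr8:105566015-105566314 on the minus strand with the match starting at -3, Fnip1 is at chr11:54437929-54438228 on the plus strand with the match starting at -75, and capitals mark the E-box.

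Atp6v0d1: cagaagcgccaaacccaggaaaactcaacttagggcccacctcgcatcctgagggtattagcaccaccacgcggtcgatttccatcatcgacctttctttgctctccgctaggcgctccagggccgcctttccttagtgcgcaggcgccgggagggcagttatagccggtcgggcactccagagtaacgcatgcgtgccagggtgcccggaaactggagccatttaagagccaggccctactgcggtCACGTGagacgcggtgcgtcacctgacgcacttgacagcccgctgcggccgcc
Fnip1: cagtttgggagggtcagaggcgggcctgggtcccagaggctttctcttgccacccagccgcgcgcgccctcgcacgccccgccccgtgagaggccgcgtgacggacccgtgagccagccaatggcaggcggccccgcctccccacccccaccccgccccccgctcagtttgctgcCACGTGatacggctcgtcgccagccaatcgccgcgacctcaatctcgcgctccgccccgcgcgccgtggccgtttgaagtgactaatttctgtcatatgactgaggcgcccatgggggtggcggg

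Atp6v0d1 stood at 101.4, 189, 143 and 186 CPM in replicate 2 and at 58.9, 87.8 and 164 CPM in the others, a log2 fold change of 0.72. Fnip1 stood at 160, 290, 191 and 327 CPM against 98.8, 147 and 199 CPM. In both genes replicate 2 was the highest library of each line, and the groups overlapped.

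Some glycolytic and clock genes were called, in both directions. Of the glycolysis list all 19 genes were tested, 6 fell, 2 rose (42.1% called), 11 were not called and the median was -0.57. Gapdh, a common reference gene, stood at 541, 351, 393 and 390 CPM against 509, 730 and 889 CPM, a log2 fold change of -0.82. MeVa2.1 replicate 2 was the only replicate 2 library above the lowest of the others, MeVa2.2.dOVA replicate 1. Pkm, pyruvate kinase, fell by 0.68, Ldha, lactate dehydrogenase, by 0.72 and Aldoa, aldolase, by 0.61, while Hk2, hexokinase 2, rose by 0.48. Of the circadian clock list 18 of 19 genes were tested, 6 rose, 1 fell (38.9% called), 11 were not called and the median was 0.24. Nr1d1, the REV-ERB alpha repressor of the clock loop, stood at 302, 667, 117 and 130 CPM against 36.1, 95.9 and 202 CPM. The MeVa2.1 lines lay higher than the MeVa2.2 lines, and replicate 2 was the highest in all 4. Its log2 fold change was 1.32. Bhlhe41, a clock repressor, Tef, an output factor, and Cry2, a repressor of the loop, rose by 1.10, 1.01 and 0.58. Arntl, the activator BMAL1 that Nr1d1 represses, fell by 0.73, with 75.9, 75.5, 76.6 and 86.7 CPM against 80.5, 137 and 201 CPM. Dbp, a direct output of the activator, was not called: its log2 fold change of 0.24 joined differences from -2.25 to 1.44 over the lines. The output factors Hlf and Nfil3 were not called either, with -0.85 and -0.29.

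**Figure D5:**
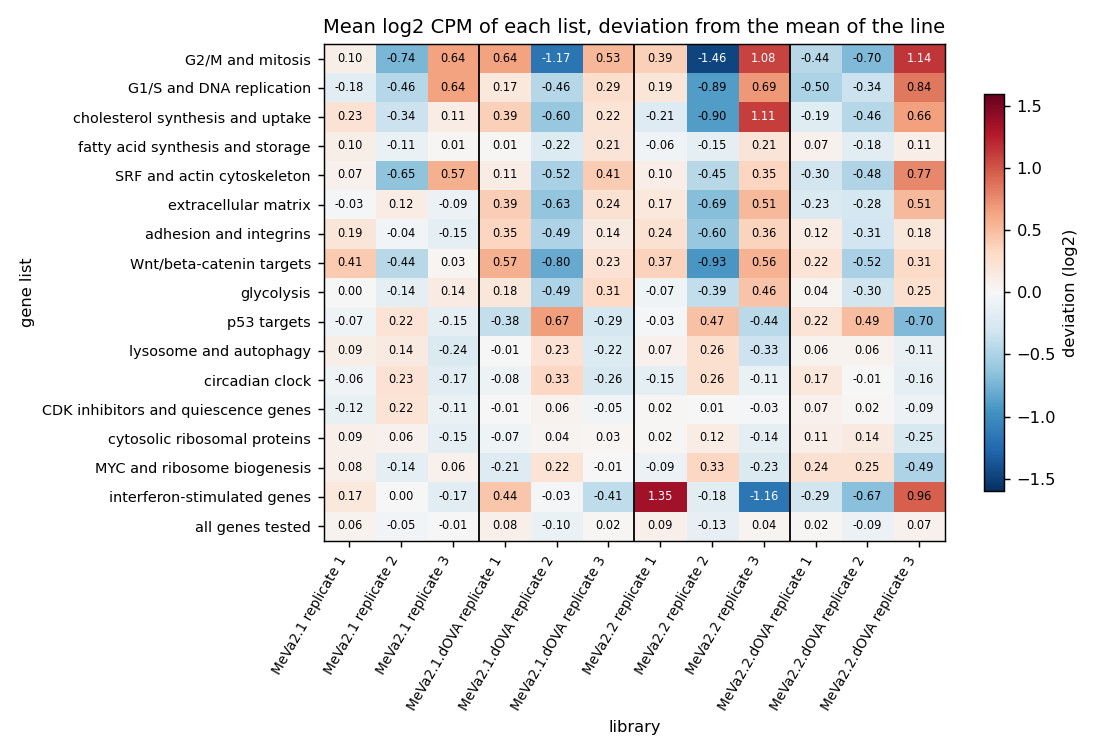
Mean log2 CPM of each gene list (vertical axis) in each library (horizontal axis) as the deviation from the mean of its line, on a colour scale from blue (lower) to red (higher) with the value in each cell and black lines between cell lines. The G2/M and mitosis list is at -0.74, -1.17, -1.46 and -0.70 in replicate 2 and at -0.44 in MeVa2.2.dOVA replicate 1, the lowest of the other 8 libraries.

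Several sets held few or no called genes. Of 48 interferon-stimulated genes tested of 49, edgeR called 0, although 40 had a negative log2 fold change and the median was -0.56. The list ranged over replicates 1 and 3 of MeVa2.2 from 1.35 above to 1.16 below the line mean. None of the 30 MYC and ribosome biogenesis genes was called, with a median log2 fold change of 0.26, and of 35 cytosolic ribosomal protein genes 2 rose, with a median of 0.17. For nuclear-encoded oxidative phosphorylation the count was 2 of 34 and the median -0.01. Rpl18, Rps23, Cycs and Ndufa9 were the genes called in these sets and were named after their values were seen. The 20 tRNA synthetases, the 27 NF-kB targets, chemokines and cytokines and the 21 genes of MAPK output tested also had 0 called, with medians of 0.07, 0.23 and 0.10. In the integrated stress response list 1 of 29 fell, with a median of 0.03.

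The naming rule took the 12 genes with the largest fold change in each direction among called genes of ample level that were highest or lowest in replicate 2 in all 4 lines. Beside those above, the lower ones were Gamt, which makes creatine (-3.08), Tmem119, a membrane protein of bone and microglia (-2.96), Cd248, the stromal glycoprotein endosialin (-2.92), Cdca3, which triggers mitotic entry (-2.68), Adcy7, an adenylate cyclase (-2.61), Prss23, a serine protease (-2.39), and Mns1, a protein of cilia and flagella (-2.39). Cd248 stood at 48.5, 3.71, 4.56 and 4.37 CPM in replicate 2 and at 4.57, 65.5 and 193 CPM in the others, so that MeVa2.1 replicate 2 lay well above the other replicate 2 libraries. The higher ones were Sh2d6, an adaptor protein gene (1.87), Avil, the actin-binding advillin (1.86), Plcxd2, a phospholipase-like gene (1.69), Clec2d, a ligand of an inhibitory receptor of natural killer cells (1.48), Arl5b, a small GTPase (1.38), Pvt1, the noncoding gene next to Myc (1.34), and Gadd45b, a stress gene (1.33). Arl5b stood at 52.3, 62.8, 75.3 and 138 CPM against 21.1, 25.7 and 71.6 CPM. Its difference within lines held between 1.13 and 1.63.

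The other replicates did not lie at equal distances from replicate 2. In a fit with 3 replicate levels, 451 genes (3.13%) were called between replicates 2 and 1, 119 (0.826%) higher and 332 (2.3%) lower in replicate 2. Between replicates 2 and 3 the count was 3528 (24.5%), 1500 (10.4%) higher and 2028 (14.1%) lower, and both comparisons share the replicate 2 libraries. The median of the G2/M and mitosis list was -1.15 against replicate 1 and -1.89 against replicate 3. For the p53 targets the medians were 0.62 and 0.85, for cholesterol synthesis and uptake -0.54 and -1.06, and for lysosome and autophagy 0.19 and 0.32.

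Replicate 3 against replicate 1 did not enter the choice of replicate 2 directly and was tested on the same fit. edgeR called 93 genes (0.646%), 22 (0.153%) higher and 71 (0.493%) lower in replicate 3, while 2694 had an unadjusted p under 0.05. Arrdc4, like Txnip an arrestin-family gene that follows glucose metabolites, had a log2 fold change of -2.92 ± 0.29 (SE, n = 4 libraries a group, edgeR adjusted p = 0.0157). Its replicate 2 levels of 27.1, 4.71, 11.3 and 20.9 CPM were the highest of each line, although its fold change of 1.62 against replicates 1 and 3 was not called. Txnip had -2.33 ± 0.42 between replicates 3 and 1 (edgeR adjusted p = 0.0433). The chemokine genes Cxcl10 and Ccl5 had -2.56 ± 0.29 and -2.74 ± 0.43 (edgeR adjusted p 0.0172 and 0.0335), and their replicate 2 levels lay between those of replicates 1 and 3 in all 4 lines. Prex2, an activator of Rac, was higher in replicate 3 by 1.71 ± 0.23 (edgeR adjusted p = 0.0172). Pdk1, a kinase that inhibits pyruvate dehydrogenase, was higher by 1.45 ± 0.23 (edgeR adjusted p = 0.0335). None of the 38 genes of the G2/M and mitosis list was called between replicates 3 and 1, where its median was 0.69. Without MeVa2.1 replicate 1 the count of 93 became 0, with 1548 at an unadjusted p under 0.05 and 193 by DESeq2. It was 1, 2 and 7 without MeVa2.1 replicate 3, MeVa2.2.dOVA replicate 1 and MeVa2.2 replicate 1.

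Whether the replicate 2 difference itself varied with the line was tested as an interaction. Between the lines of MeVa2.2 origin and those of MeVa2.1 origin edgeR called 0 of 14407 genes, with 941 at an unadjusted p under 0.05 and 6 called by DESeq2. Between the dOVA lines and their parents edgeR called 0, with 206 at an unadjusted p under 0.05 and 0 by DESeq2. On simulated counts these tests recovered 12% and 5% of differences of 1 on the log2 scale and 55% and 60% of differences of 2, so that smaller differences between lines were mostly not detectable at this size. The list medians by line above are therefore given as values, with no difference between lines shown.

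For the marker sums of other cell types that passed 10 CPM in any library, replicate 2 was the highest of its line in 0 of 4 lines. The smooth muscle and pericyte sum, given above and mostly made of Acta2, was the lowest in 4 of 4 lines. Replicate 2 had the highest sum of its line for endothelial markers in 2 lines, at no more than 3.88 CPM, and for Schwann, erythroid and adipocyte markers in 1 line each. The 19 leukocyte markers summed to 3.60 to 7.30 CPM in replicate 2 and to 3.84 to 23.9 CPM in the others, with 6 of them at 0 in all libraries. The marker with the highest level was Cd14, at 1.47 to 12.3 CPM, followed by S100a8 at up to 6.11 CPM and Cd68 at 1.24 to 4.24 CPM. The 10 fibroblast markers, among them the collagen genes, summed to 1691 to 3684 CPM in replicate 2 and to 1560 to 6280 CPM in the others, and were lowest in replicate 2 in 2 of 4 lines. The 10 melanocyte markers summed to 9.29 to 21.5 CPM against 11.2 to 61.7 CPM, lowest in replicate 2 in 3 lines. Of these Mitf was present in every library (9.06 to 24.4 CPM), while Tyr, Tyrp1, Dct and Mlana were at 0 in some, so the label melanoma rests on few pigment-cell markers here. The part of these markers in the results was not tested.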

How the data were processed

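RNA of 12 libraries (4 lines, 3 each) was read as the authors' deposited counts: whole, not normalized read counts per gene. STAR 2.6.0c, HTSeq 0.10.0, DESeq2 1.30.1 and build GRCm38 are named in the submitters' processing notes. The 5 tally lines that close every file entered neither library sizes nor tests. Of 55471 gene identifiers, names came from the gene name table and positions from GENCODE M21 on GRCm38. Groups and replicate numbers came from the sample titles. The members and gene lists were chosen with earlier results of these data known.

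The tests used edgeR 4.0.16 under R 4.3.3 (filterByExpr, TMM scaling, quasi-likelihood test, Benjamini-Hochberg adjustment, threshold 0.05), replicate 2 against replicates 1 and 3 with the line as a block. CPM are TMM-scaled and not per length, with a prior count of 2 where log2 CPM are averaged or differences within lines are taken. DESeq2 1.42.0 was an alternative. Of 997 genes in 41 lists 927 were tested. Named genes were the 12 with the largest fold change in each direction among called genes with mean log2 CPM of at least 3 that were extreme in all 4 lines, and up to 5 genes a list; further list members were named after their values were seen. Simulated counts with 200 changed genes gave 69% recovery at a log2 change of 1 and 97% at 2 for the replicate 2 contrast, over 14156 genes. Motifs were chosen after the values of the lists were seen, and the first start listed for each gene was searched. Printed promoters have a start within 500 bases of the annotated 5′ end, and genes on a chromosome set aside were not printed. Reads shared by near-identical genes, such as copies of histone genes, can fall in the low mapping quality tally and out of the counts. Some genes are not reported here.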

Additional observations from a re-analysis of the deposited data

Results flagged for a closer look

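The replicate 2 difference (median log2 difference of a list within a line) took opposite signs in the lines of the MeVa2.2 origin and those of the MeVa2.1 origin for 3 lists. For the integrated stress response the mean was 0.39 in the former and -0.17 in the latter, a gap of 0.57. For amino acid and nutrient transporters the gap was 0.47 and for YAP/TAZ targets 0.31.

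For 4 lists both dOVA lines lay on the other side of 0 from both parent lines. The dOVA lines minus the parents gave 0.55 for NF-kB targets, chemokines and cytokines, 0.17 for nuclear-encoded oxidative phosphorylation, -0.27 for CDK inhibitors and quiescence genes and -0.32 for TGF-beta and SMAD targets. None of these 7 differences between groups of lines was tested, and some parents' medians were close to 0. They were picked from 41 lists for their signs, and lists can split in this way by chance alone. Nothing is read from their number.

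The unfolded protein response and chaperones of the ER list had a median of 0.12 in MeVa2.1.dOVA and of -0.09 to -0.08 in the other 3 lines, a gap of 0.931 of the whole range. About 1 in 20 groups of 4 is set apart in this way by chance alone.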

How the results depend on the processing

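The count of 1959 called genes in replicate 2 became 3453 with DESeq2, 3531 with no filter on low counts, 1284 against replicate 1 alone and 2 with no line block. With relative log expression size factors it was 2038, and 44.1% of the calls were higher, beside 39.4%. In the MeVa2.1 lines alone edgeR called 0 (3177 at an unadjusted p under 0.05, 1568 by DESeq2) and in the MeVa2.2 lines alone 0 (2864 and 910). Without the replicate 2 libraries of MeVa2.2 and MeVa2.1.dOVA together, an alternative chosen after seeing the data, it called 0 (1320 and 35). Leaving out each library in turn gave 0 to 3137. The 93 genes between replicates 3 and 1 became 908 with DESeq2 and 756 with no filter, and 0 to 88 with a library left out. The interaction with origin gave 6 genes with DESeq2 and 213 with no filter, and that with dOVA 30 with no filter, while both were 0 in edgeR with any library left out. The cause of these differences was not tested.

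For the 118 genes followed by name, 2805 fold changes were recomputed over the alternatives. Of these 1866 kept their side of the threshold, 914 were no longer called and 23 became called. Another 2 reversed in sign while called in the main or the alternative fit. Sign changes of genes called in neither fit are counted among the 1866. Cxcl10 and Ccl5, negative and not called against replicates 1 and 3, were positive against replicate 3 alone, at 1.39 and 1.17.

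The labels do not say that a replicate number pairs libraries, so they were not taken as paired in the main fit. That fit leaves the difference between replicates 1 and 3 in its residual spread. The correlation of the deviations of same-numbered libraries was positive in all 18 pairs, from 0.0826 to 0.628. Each of the 12 libraries correlated best, on average, with its own number in the other lines. When each library was set against each other line, the best match had the same number in 31 of 36 cases. Both are a hint of shared handling by number from the data alone. With the replicate block (3 replicate levels beside the line) 3054 genes were called for replicate 2, all 1959 among them, and both interactions were at 0.

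Depth was unequal, from 16181816 to 35627069 counts, and thinning every library to the smallest total left 1939 calls. Scarce genes such as Myl9 rest on few reads.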
